A study of Mus musculus with 15 samples.

Results

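Motor neurons of SMA mice given SMN-C3 were compared with motor neurons of SMA mice given vehicle. SMA stands for the SMNΔ7 mouse (Smn-/-;SMN2;SMNΔ7), a model of spinal muscular atrophy that has no working mouse Smn gene and lives on human SMN2 and SMNΔ7 transgenes. SMN-C3 is a small molecule that changes the splicing of SMN2. Members were chosen by the genotype and treatment in the sample labels, 3 samples of SMA+SMN-C3 and 3 of SMA, which are 6 of the 15 samples of the series. Of 36144 genes in the table, the 15425 with at least 1 TPM (a relative abundance of transcripts that corrects for their length) in at least 3 of the 15 libraries were tested.

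SMN-C3 was injected into the peritoneum at 3 mg/kg each day from postnatal day 0, and tissue was taken at postnatal day 6. SMA controls and WT mice received vehicle on the same schedule. All mice were of FVB background, and males and females were used in equal parts. The other groups, used here for reference, were WT littermates with both Smn alleles and the same transgenes (Smn+/+;SMN2;SMNΔ7), and SMA mice given the p38 inhibitor MW150 (5 mg/kg) or the p53 inhibitor Pifithrin-alpha (2.2 mg/kg). Neurons of lumbar segments L1 to L3 that carried the retrograde label cholera toxin subunit B were cut out by laser capture, and low-input poly(A) libraries were sequenced. The Smn deletion is present in every cell of the mouse and the drug was given to the whole animal, so the captured neurons are not the only cells exposed. The labels call the 3 samples of a group biological replicates. The p-values measure the spread between samples within groups, pooled over the 5 groups and 15 libraries unless stated otherwise.

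As background, SMN2 differs from SMN1 in a base that makes most of its transcripts skip exon 7, and the shortened protein is unstable. Compounds of this kind favour inclusion of that exon and so raise full-length SMN, which with its Gemin partners loads Sm proteins onto the small nuclear RNAs of the spliceosome. In SMA mice the most vulnerable motor neurons accumulate p53, a transcription factor that switches on genes for cell-cycle arrest, cell death, DNA repair and metabolism. The human SMN2 transcript was not analysed here, so its splicing and level are not part of what follows.

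Smn1 (ENSMUSG00000021645.16, chr13:100124852-100137690 on the plus strand), the mouse gene removed in SMA mice, was listed at 0.462, 0 and 0 TPM in SMA, at 0.102, 0 and 0.803 TPM in SMA+SMN-C3 and at 8.97, 16.5 and 23.3 TPM in WT. The labelled genotypes were thus followed in these libraries, since every WT value exceeded every value of the other groups. All 17 motor neuron genes of a fixed list were above 0 in each of the 6 libraries, with a summed level of 4599 to 5892 TPM in SMA and 6105 to 6542 TPM in SMA+SMN-C3. TPM keeps no read depth, so no counting interval can be given. Genes at 1 TPM or more numbered 13539, 14353 and 14916 in SMA and 13069, 12901 and 13007 in SMA+SMN-C3, so the treated libraries held fewer. Mitochondrially encoded genes took 3.76% to 7.15% of all TPM in SMA and 5.92% to 11.3% in SMA+SMN-C3.

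A shift that varied with the level of a gene ran through the whole comparison. As deposited, 11294 of 15425 genes (73.2%) had a negative log2 change, and the median was -0.23. Median-of-ratios scaling, which divides each library by 1 factor so that the typical gene is level, moved that median to -0.03 with 52.5% negative, and changes below are read against these medians. The gap to the typical SMA value was alike in the treated libraries: the median gene lay 0.28, 0.21 and 0.19 below the SMA mean on the log2 scale in SMA+SMN-C3 1, 2 and 3. Negative gaps were not limited to SMN-C3. The median gene stood at -0.50, -0.20 and -0.04 from the SMA mean in WT 1, 2 and 3. In Pifithrin-alpha 1, 2 and 3 it stood at 0.13, -0.14 and -0.65, and in MW150 1, 2 and 3 at 0.10, 0.02 and 0.07.

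Low genes lay lower, and abundant genes had a median close to 0. Among genes with a mean under 2 TPM the median change was -0.38, it was -0.27 at 10 to 20 TPM, and at 100 TPM or more it was -0.02. After scaling the same bins stood at -0.28, -0.04 and 0.22. In the scaled values the 3 treated libraries lay wholly above the 3 SMA libraries for 2.24% of genes under 2 TPM and for 31.9% of genes at 100 TPM or more, and wholly below for 12.8% and 2.18%. Protein-coding genes (14274 tested) had a median of -0.22 and pseudogenes (1047 tested) one of -0.34, or -0.02 and -0.21 after scaling. Fewer tested genes were listed at 0 in SMA (465, 353 and 290) than in SMA+SMN-C3 (669, 900 and 582). Listed at 0 in every treated library and at 1 TPM or more in every SMA library were 11 genes, and the reverse held for 2, Gm13687 and Gm4660, singled out after values were seen. TPM values are shares of a library. Less RNA from many low genes and more RNA from abundant ones cannot be told apart here, and in bulk samples neither can fewer cells of a type and less RNA per cell.

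**Figure D1:**
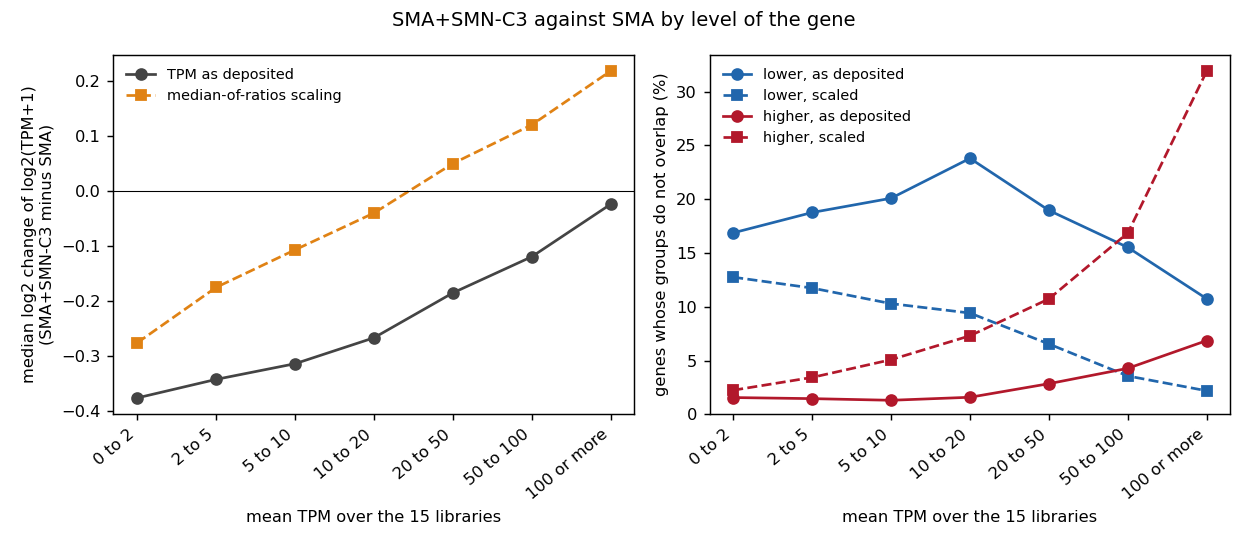
Left, median difference in log2(TPM+1) between SMA+SMN-C3 and SMA (y axis) for genes grouped by their mean TPM over 15 libraries (x axis), with TPM as deposited and after median-of-ratios scaling. Right, percent of genes in each group whose 3 treated libraries lie all below or all above the 3 SMA libraries; the median climbs from -0.38 to -0.02 as deposited and from -0.28 to 0.22 after scaling.

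With limma and Benjamini-Hochberg adjustment, 10 genes (0.0648% of those tested) were called at an adjusted p under 0.05, and all were lower with SMN-C3. After scaling the count was again 10 genes, 0.0648%, and they were the same genes. Before adjustment 1315 genes had a p under 0.05. None of the 10 belongs to the lists of pathways or cell type markers used below, and none exceeded 6.47 TPM in a WT library.

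Ly6d (ENSMUSG00000034634.7, chr15:74762056-74763620 on the minus strand), a surface protein of the Ly6 family anchored by a lipid, was at 41.3, 54.6 and 7.31 TPM in SMA and listed at 0 in all 3 SMA+SMN-C3 libraries and all 3 WT libraries (limma adjusted p 0.0025). It was still present at 23.1, 16.6 and 30.9 TPM with MW150 and at 11.5, 14.001 and 3.41 TPM with Pifithrin-alpha. Every SMA, MW150 and Pifithrin-alpha library was therefore above 0 while no SMN-C3 library was. It was also called in each of the 6 fits that left out 1 library (highest adjusted p 0.040).

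Traj45 (ENSMUSG00000076885.1, chr14:54172828-54172890 on the plus strand) is a joining segment of the T cell receptor alpha locus and is only 63 bases long, a length at which few reads decide a TPM value. It was at 6.29, 8.25 and 7.42 TPM in SMA and listed at 0 in the other 12 libraries, WT and every treatment included (limma adjusted p 9.2e-05). Its absence is thus shared by all 3 treated groups and WT. Only the 3 SMA libraries were above 0, so the filter on low values kept Traj45 solely through the group where it is high. A gene kept in that way had to differ, and neither its p nor its repeated calls with a library left out count as support.

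Bglap2 (ENSMUSG00000074486.2, chr3:88377736-88378699 on the minus strand), one of the osteocalcin genes, which are nearly identical copies and so uncertain in read assignment, was at 40.04, 11.9 and 2.88 TPM in SMA and listed at 0 in every SMA+SMN-C3 and WT library (limma adjusted p 0.035). Ddit4l (ENSMUSG00000046818.7, chr3:137621612-137628333 on the plus strand), a relative of REDD1 that restrains mTOR signalling, was at 31.6, 18.6 and 8.14 TPM in SMA and 0.354, 1.07 and 0.728 TPM with SMN-C3, a log2 change of -3.41 (SE 0.55, limma adjusted p 0.028). In WT, Ddit4l was at 5.06, 1.197 and 0.351 TPM. The treated and SMA libraries of both genes did not overlap, and SMA 3 was the lowest of the SMA libraries for each.

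Gjb5 (ENSMUSG00000042357.2, chr4:127354809-127358181 on the minus strand), which encodes a connexin of gap junctions, was at 33.3, 12.6 and 6.96 TPM in SMA, listed at 2.77, 0 and 0 TPM with SMN-C3 and at 0 in WT (log2 -3.31, SE 0.59, limma adjusted p 0.049). Tcea3 (ENSMUSG00000001604.14, chr4:136247729-136274898 on the plus strand), a transcription elongation factor, was at 9.68, 8.58 and 3.26 TPM in SMA, 0.109, 0 and 0 TPM with SMN-C3 and 0, 0.108 and 0.0609 TPM in WT (log2 -2.87, SE 0.48, limma adjusted p 0.034). Them5 (ENSMUSG00000028148.11, chr3:94342099-94347352 on the plus strand), a mitochondrial thioesterase that acts on cardiolipin remodelling, was at 15.5, 6.09 and 2.898 TPM in SMA, 0, 0 and 0.261 TPM with SMN-C3 and 0 in WT (log2 -2.83, SE 0.44, limma adjusted p 0.024). Apart from Gjb5 in SMA+SMN-C3 1, the SMN-C3 libraries were at 0 or below 0.3 TPM, and SMA 1 was the highest of all 15 libraries for each gene.

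Plek2 (ENSMUSG00000021118.7, chr12:78888691-78906964 on the minus strand), a pleckstrin that links membrane lipids to actin, was at 78.5, 33.4 and 22.6 TPM in SMA, 3.78, 5.64 and 5.69 TPM with SMN-C3 and 1.38, 2.73 and 4.32 TPM in WT (log2 -2.75, SE 0.42, limma adjusted p 0.019). Espn (ENSMUSG00000028943.18, chr4:152120331-152152371 on the minus strand), which bundles actin filaments in the stereocilia of hair cells, was at 17.1, 8.76 and 6.05 TPM in SMA, 0.923, 0.27997 and 0.902 TPM with SMN-C3 and 0.967, 0.619 and 1.303 TPM in WT (log2 -2.68, SE 0.46, limma adjusted p 0.035). 1700007K13Rik (ENSMUSG00000026831.16, chr2:28462001-28466332 on the minus strand) was the most abundant of the 10, at 180.4, 95.8 and 67.4 TPM in SMA, 14.7, 27.7 and 15.2 TPM with SMN-C3 and 6.47, 6.46 and 5.11 TPM in WT (log2 -2.46, SE 0.34, limma adjusted p 0.0075). Only for 1700007K13Rik did all SMN-C3 libraries of a called gene stay above all WT libraries, and that difference was not called (log2 1.47, limma adjusted p 0.27).

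Leaving out SMA 1 or SMA 2 reduced the calls to 2, Ly6d and Traj45, and leaving out SMA+SMN-C3 1, 2 or 3 gave 3, 4 and 2 calls. A fit of only these 6 libraries, on the same genes, called 0 (limma, 2265 genes at an unadjusted p under 0.05). With its filter also set within those libraries it called 21 (0.154% of those tested there), all lower, which include 7 of the 10. That narrower filter kept Ly6d, Traj45, Tcea3 and Espn solely through the SMA libraries, where they are high. Their calls in that fit therefore count as no support.

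**Figure D2:**
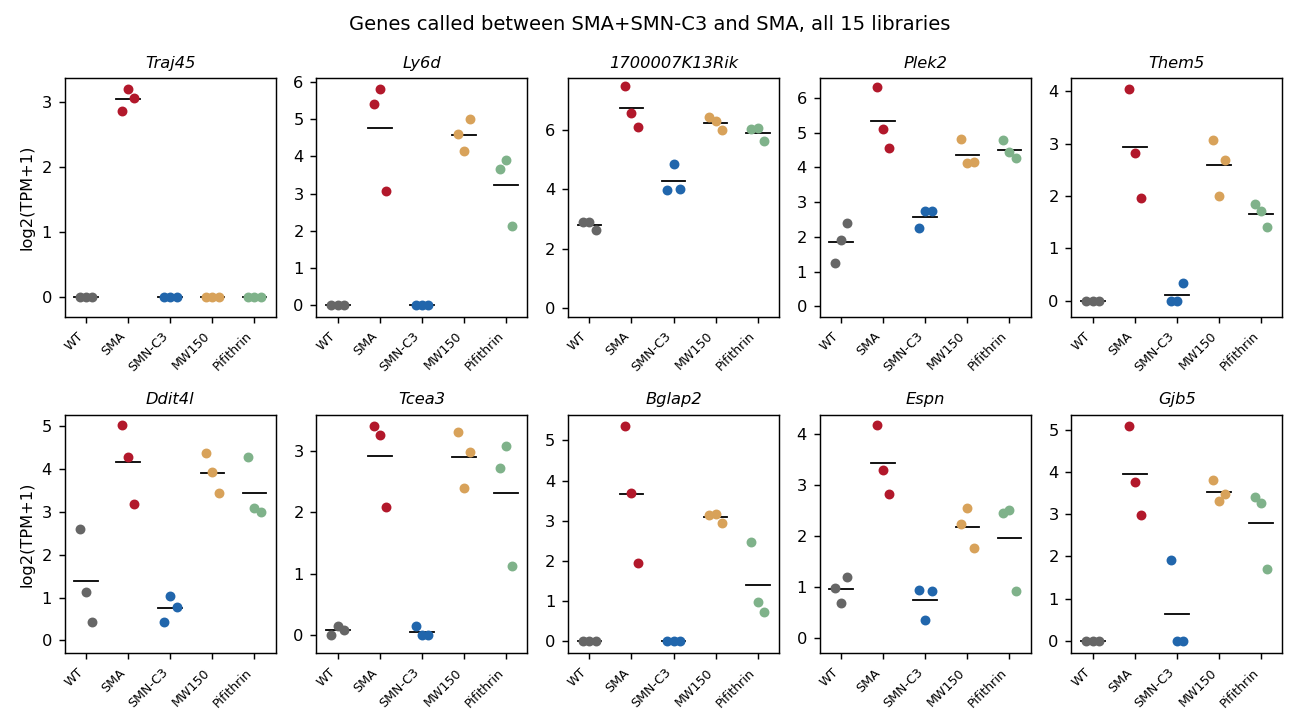
Level in log2(TPM+1) (y axis) of the 10 called genes in all 15 libraries, 3 points per group in replicate order, with a black line at the group mean. SMN-C3, MW150 and Pifithrin stand for SMA mice given SMN-C3, MW150 and Pifithrin-alpha; in each panel the SMN-C3 points lie below the 3 SMA points, with all 3 at 0 for Traj45, Ly6d and Bglap2.

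p53 target genes lay lower with SMN-C3, although none was called (smallest limma adjusted p 0.11). No gene of any of the 32 lists described from here on was called against SMA, so list members are given by value. Of 45 tested genes in 3 lists for arrest, death, and repair or metabolism, 43 had a negative change, with a median of -0.72 against -0.23 for all genes, and -0.48 against -0.03 after scaling. For 28 of the 45 the SMN-C3 libraries lay wholly below the SMA libraries and for 0 wholly above. Over all tested genes those shares were 18.2% and 2.52%. In scaled values 22 of the 45 lay wholly below and 0 above, where 8.82% and 9.37% of all genes did. The lists were known to differ in these data when they were chosen, so the counts describe the genes and are no independent support.

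The mean level of the whole p53 list was 4.80, 4.40 and 4.31 in SMA 1, 2 and 3 and 3.56, 3.73 and 3.68 in SMA+SMN-C3 1, 2 and 3, in log2(TPM+1). In WT it was 2.68, 3.15 and 3.45. The SMN-C3 libraries thus lay between WT and SMA without overlap with either, and SMA 1 was highest. After scaling the ranges were 3.66 to 3.81 with SMN-C3, 4.17 to 4.69 in SMA and 2.94 to 3.37 in WT. Microglia markers were also higher in SMA than in WT or with SMN-C3. Their summed level was 79.5 to 116 TPM in WT, 105 to 146 TPM with SMN-C3 and 217 to 256 TPM in SMA. The WT and SMN-C3 ranges of these markers overlapped, and their part in the p53 values was not tested.

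For the genes of this group, the letters that p53 reads are shown where they stand close to a gene's start. A p53 response element is a pair of adjoining half-sites, each built around a core with a C and a G. Promoter sequences from RefSeq (GRCm38.p6) were searched on the gene's strand, in the 250 bases before each start, for the p53 consensus over 20 bases. The consensus is its own reverse complement, so a scan of that strand covers both. Both cores had to be intact and at least 17 bases had to match, a limit set after values were seen. Such a match stood in 156 of 32851 promoters (0.475%), in 5 of 49 promoters (10.2%) of 36 p53 list genes, and in 0 of 9 promoters of the 7 called genes that matched the table. A match is a description of letters and not a shown binding site, and no match says only that the letters are not in this window. The 5 matches are printed 5′ to 3′ on the gene's strand in 60 bases, with the matched 20 bases in capitals.
Cdkn1a, chr17:29090908-29090967 (plus strand): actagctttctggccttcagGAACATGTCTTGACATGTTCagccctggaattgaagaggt
Ckap2, chr8:22185983-22186042 (minus strand): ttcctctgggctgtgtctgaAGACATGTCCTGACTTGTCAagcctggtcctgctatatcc
Bbc3, chr7:16309466-16309525 (plus strand): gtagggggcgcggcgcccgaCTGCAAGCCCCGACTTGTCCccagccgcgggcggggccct
Aen, chr7:78895917-78895976 (plus strand): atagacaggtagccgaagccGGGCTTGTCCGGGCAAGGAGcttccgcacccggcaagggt
Tigar, chr6:127109726-127109785 (minus strand): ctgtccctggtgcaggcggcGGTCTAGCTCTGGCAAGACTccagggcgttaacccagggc
The Cdkn1a window matched in 19 of 20 bases, Ckap2 in 18, and Bbc3, Aen and Tigar in 17.

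Genes that stop the cell cycle or feed back on p53 had a median of -0.72 over 15 genes. Cdkn1a (ENSMUSG00000023067.14, chr17:29090976-29100727 on the plus strand), which encodes the cell-cycle inhibitor p21 and carries the closest match above, was at 1430.5, 1140.3 and 590.4 TPM in SMA and 317, 313 and 324 TPM with SMN-C3. The treated libraries were nearly equal to each other, while SMA 1 stood well above SMA 3 (log2 change -1.63, SE 0.40, limma adjusted p 0.17). Plk2 (ENSMUSG00000021701.8, chr13:110395046-110400844 on the plus strand), a kinase of the polo family, was at 57.97, 28.2 and 27.5 TPM in SMA and 9.69, 10.9 and 10.3 TPM with SMN-C3 (log2 -1.70, SE 0.33, limma adjusted p 0.11). Gtse1 (ENSMUSG00000022385.11, chr15:85859745-85876573 on the plus strand), a microtubule protein that draws p53 out of the nucleus, was at 11.8, 6.19 and 6.33 TPM in SMA and 1.31, 2.47 and 1.001 TPM with SMN-C3 (log2 -1.80, SE 0.40, limma adjusted p 0.14). None of these genes overlapped between the groups. Mdm2, the ligase that degrades p53, was at 50.4, 25.8 and 39.9 TPM in SMA and 12.8, 16.1 and 18.97 TPM with SMN-C3, and Ccng1, which encodes cyclin G1, at 95.2, 46.7 and 58.2 TPM in SMA and 43.4, 36.5 and 35.7 TPM with SMN-C3. Both lay wholly lower as deposited, and the Ccng1 groups overlapped after scaling.

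Death genes had a median of -0.76 over 14 genes, and 10 of the 14 lay wholly below SMA. Fas (ENSMUSG00000024778.13, chr19:34290666-34327772 on the plus strand), a death receptor, was at 47.8, 21.1 and 16.1 TPM in SMA and 4.44, 4.86 and 2.702 TPM with SMN-C3 (log2 -2.43, SE 0.50, limma adjusted p 0.13). Perp (ENSMUSG00000019851.8, chr10:18845020-18857073 on the plus strand), a membrane protein of desmosomes that p53 induces in dying cells, was at 118, 38.6 and 40.1 TPM in SMA and 11.8, 12.3 and 16.8 TPM with SMN-C3 (log2 -2.00, SE 0.39, limma adjusted p 0.11). Both genes were apart in either scaling. Pmaip1, which encodes the BH3-only protein Noxa, was at 29.5, 7.08 and 10.3 TPM in SMA and 5.69, 1.59 and 1.961 TPM with SMN-C3, and its groups overlapped once scaled. Bbc3 (Puma), named for its promoter match, was at 57.9, 48.9 and 48.5 TPM in SMA and 21.2, 38.1 and 36.9 TPM with SMN-C3. Aen, a nuclease named for the same reason, was at 166, 85.7 and 107 TPM in SMA and 75.1, 62.3 and 82.6 TPM with SMN-C3. Each lay wholly below SMA as deposited, with log2 changes of -0.72 and -0.65 (limma adjusted p 0.73 and 0.68).

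Repair and metabolic targets had a median of -0.59 over 16 genes, with 10 wholly below SMA. Dcxr (ENSMUSG00000039450.11, chr11:120725399-120727281 on the minus strand), a xylulose reductase, was at 474, 269 and 213 TPM in SMA and 109, 110.5 and 98.3 TPM with SMN-C3 (log2 -1.50, SE 0.36, limma adjusted p 0.16). Polk (ENSMUSG00000021668.15, chr13:96480690-96542579 on the minus strand), a polymerase that copies past DNA damage, was at 12.999, 11.04 and 7.36 TPM in SMA and 3.16, 0.489 and 1.63 TPM with SMN-C3 (log2 -2.14, SE 0.45, limma adjusted p 0.13). The groups did not overlap for either gene. Ckap2, a spindle protein with the second-best promoter match, was at 9.82, 10.1 and 9.55 TPM in SMA and 5.58, 4.54 and 3.09 TPM with SMN-C3 (log2 -1.03). Tigar, a phosphatase of sugar metabolism that also has a match, was at 10.8, 8.54 and 11.9 TPM in SMA and 7.39, 11.5 and 11.5 TPM with SMN-C3. Tigar libraries overlapped in either scaling, and its change turned sign with scaling (0.17 against -0.05). Trp53 itself was at 50.4, 37.8 and 34.9 TPM in SMA and 15.7, 33.5 and 20.98 TPM with SMN-C3 (log2 -0.83, limma adjusted p 0.55), apart as deposited but not after scaling.

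Several of these genes passed the threshold under other processing, always lower. With array weights, which let libraries differ in precision, 231 genes (1.5% of those tested) were called, 226 of them lower, against 10 without weights. Among them Plk2, Gtse1, Cdkn1a, Perp, Fas, Pmaip1, Polk, Dcxr and Mdm2 had adjusted p of 0.0018 to 0.036 in limma. The fit with the mitochondrial share as a covariate called 29 genes (0.188%), among them Plk2 and Perp (adjusted p 0.024 and 0.033).

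**Figure D3:**
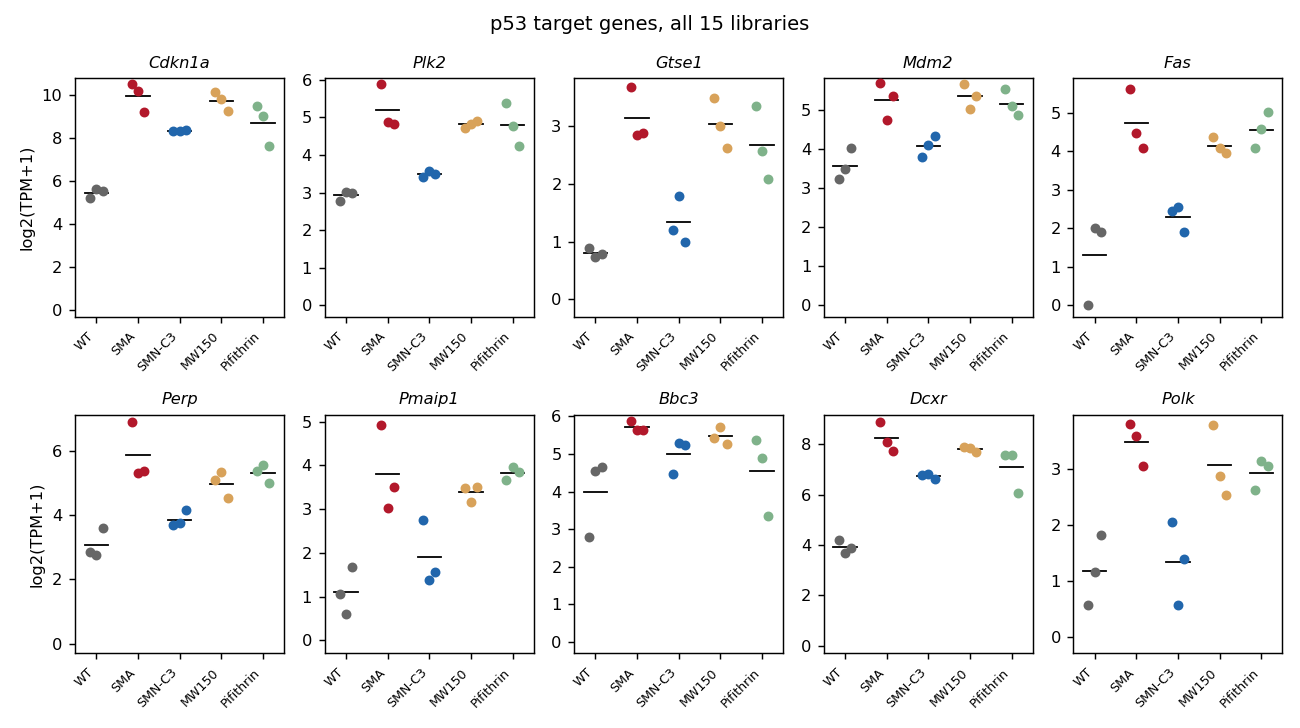
Level in log2(TPM+1) (y axis) of 10 p53 target genes in all 15 libraries, 3 points per group in replicate order, with a black line at the group mean. The SMN-C3 points lie below the SMA points in each panel, and for Cdkn1a and Dcxr they also lie far above WT.

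Genes of the machinery that SMN serves showed no shared direction that held in both scalings. Over all genes 73.2% had a negative change as deposited and 52.5% after scaling. Of 9 genes of the SMN complex 4 had a negative and 5 a positive change, and 0 were called. Their median was 0.10 (scaled 0.17), against -0.23 (scaled -0.03) for all genes. As deposited 0 of the 9 lay wholly lower and 1 wholly higher, and after scaling 0 and 3. Those shares of all genes were 18.2% and 2.52% as deposited, and 8.82% and 9.37% after scaling. Gemin6, a subunit that binds Sm proteins, was at 18.1, 9.56 and 14.3 TPM in SMA and 27.99, 22.05 and 17.5 TPM with SMN-C3. Gemin4 was at 34.5, 25.8 and 28.8 TPM in SMA and 10.3, 13.6 and 25.8 TPM with SMN-C3, and Gemin8, which holds the complex together, at 4.11, 11.6 and 9.16 TPM in SMA and 4.24, 7.11 and 3.57 TPM with SMN-C3. All 3 genes overlapped between the groups as deposited, and after scaling Gemin6 lay wholly higher. The 16 Sm and LSm genes, which form the ring around small nuclear RNAs, had a median of -0.18 (scaled 0.06, with 2 wholly lower and 0 wholly higher as deposited). Of these 16, 13 had a negative change as deposited and 5 after scaling. Snrpg of that ring was at 192, 198 and 187 TPM in SMA and 126, 172 and 100.1 TPM with SMN-C3, apart as deposited and overlapping once scaled.

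The 9 proteins of the minor spliceosome, which removes the rare U12-type introns, had a median of -0.11 (scaled 0.12, with 2 wholly lower and 0 wholly higher as deposited). Of these 9, 7 had a negative change as deposited and 3 after scaling. Rnpc3 was at 32.6, 34.1 and 28.7 TPM in SMA and 27.7, 17.2 and 23.1 TPM with SMN-C3, Zmat5 at 62.5, 49.9 and 50.2 TPM in SMA and 36.1, 37.3 and 46.3 TPM with SMN-C3, and Pdcd7 at 13.8, 21.3 and 11.2 TPM in SMA and 6.43, 12.6 and 11.9 TPM with SMN-C3. Rnpc3 and Zmat5 lay lower with SMN-C3 as deposited only. Tmem41b (Stasimon), a gene with such an intron, was at 56.5, 44.8 and 37.1 TPM in SMA and 38.5, 36.8 and 39.6 TPM with SMN-C3, where the groups overlapped.

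Compounds of the SMN-C3 class are known to alter splicing of a few other genes in human cells, and 5 mouse counterparts were looked at for their total level. Pomt2, an enzyme that adds mannose to proteins, was at 7.42, 6.597 and 7.17 TPM in SMA and 3.07, 3.44 and 4.49 TPM with SMN-C3 (log2 -0.80, limma adjusted p 0.59), apart in either scaling. Madd, a regulator of Rab3 and MAP kinase signalling, was at 15.2, 16.4 and 25.97 TPM in SMA and 9.13, 14.1 and 13.02 TPM with SMN-C3, and Aplp2, a relative of the amyloid precursor, at 335, 329 and 418 TPM in SMA and 377, 432 and 398 TPM with SMN-C3. None of the 5 was called. Gene totals do not show which exons were used.

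Motor neuron genes lay on the upper side. Of 17 identity genes 13 had a positive change, with a median of 0.17 (scaled 0.40), with 3 of 17 wholly higher, 1 wholly lower and 0 called. Over all tested genes 2.52% lay wholly higher and 18.2% wholly lower. After scaling 6 of the 17 (35.3%) lay wholly higher. That share was near the 31.9% of all genes at 100 TPM or more, whose scaled median was 0.22. Chodl (ENSMUSG00000022860.15, chr16:78930948-78951733 on the plus strand), a lectin that marks fast motor neurons, was at 119, 143 and 401 TPM in SMA and 467, 541 and 605 TPM with SMN-C3 (log2 1.49, 95% interval 0.67 to 2.30, limma adjusted p 0.26). Its WT values were 539, 480.03 and 769 TPM, so the treated libraries overlapped WT, while SMA 1 and SMA 2 were lowest of all. Slc10a4, a vesicular transporter of cholinergic neurons, was at 274, 189 and 281 TPM in SMA and 399, 387 and 370.2 TPM with SMN-C3 (log2 0.66). Chat, the enzyme that makes acetylcholine, was at 75.8, 73.5 and 94.4 TPM in SMA and 104, 133 and 116 TPM with SMN-C3. Both were wholly higher in either scaling. Gfra1, a GDNF receptor, lay the other way, at 130.1, 109.9 and 105 TPM in SMA and 79.8, 58.2 and 79.8 TPM with SMN-C3, wholly lower in either scaling.

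Neurofilaments fill large axons and set their width. Nefh, the heavy chain, was at 793, 801 and 904 TPM in SMA and 1060.3, 1506 and 1282 TPM with SMN-C3 (log2 0.61, SE 0.30, limma adjusted p 0.59). Nefm was at 5301, 3982 and 4681 TPM in SMA and 4957, 7033 and 5908 TPM with SMN-C3 and Nefl at 5826, 3329.8 and 5642 TPM in SMA and 5272, 6304 and 6313 TPM with SMN-C3. Nefh libraries did not overlap, and with the mitochondrial share as a covariate Nefh was called as higher (log2 0.77, limma adjusted p 0.028). Over 14 cytoskeletal genes the median was 0.11, or 0.36 after scaling, where 7 of 14 lay wholly above SMA. The scaled median of all genes at 100 TPM or more was 0.22. Axonal transport motors (15 genes) had a median of 0.00 (scaled 0.24, with 1 wholly lower and 0 wholly higher as deposited), and Kif1a, a kinesin for synaptic vesicle precursors, was at 197, 279 and 178 TPM in SMA and 112, 131 and 176 TPM with SMN-C3.

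Excitability genes lay on both sides. As deposited 18.2% of all genes lay wholly lower and 2.52% wholly higher. Voltage-gated channels (24 genes) had a median of 0.02 (scaled 0.23, with 1 wholly lower and 0 wholly higher as deposited). The potassium channel Kcna1 was at 31.5, 52.7 and 53.1 TPM in SMA and 44.9, 85.4 and 84.2 TPM with SMN-C3, and Kcna6 at 31.8, 25.2 and 16.8 TPM in SMA and 15.3, 14.97 and 13.6 TPM with SMN-C3. Kcna6 lay wholly lower and Kcna1 overlapped as deposited. Glutamate receptors (13 genes) had a median of -0.28 (scaled -0.07, with 3 wholly lower and 1 wholly higher as deposited), and inhibitory receptors (13 genes) one of 0.16 (scaled 0.39). After scaling 0 glutamate receptors lay wholly lower and 2 wholly higher. The NMDA receptor subunit Grin2a was at 7.595, 13.3 and 15.5 TPM in SMA and 22.4, 17.4 and 20.3 TPM with SMN-C3, while the AMPA receptor subunit Gria4 was at 56.8, 54.9 and 56.5 TPM in SMA and 52.5, 33.5 and 49.8 TPM with SMN-C3. The GABA-A receptor subunit Gabra2 was at 42.4, 42.5 and 67.4 TPM in SMA and 74.3, 75.3 and 77.1 TPM with SMN-C3. Grin2a and Gabra2 lay wholly higher in either scaling and Gria4 wholly lower as deposited only.

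Synaptic vesicle genes (19 genes) had a median of -0.10 (scaled 0.14, with 1 wholly lower and 1 wholly higher as deposited). Snap25, a SNARE protein of the plasma membrane, was at 939.5, 714 and 1054 TPM in SMA and 1660, 1133 and 1283 TPM with SMN-C3 (log2 0.59), wholly higher. Its vesicle partner Vamp2 was at 333, 266 and 265 TPM in SMA and 205, 202 and 206 TPM with SMN-C3 (log2 -0.49), wholly lower in either scaling. Partners of the same fusion complex thus lay on opposite sides, and neither was called (limma adjusted p 0.57 and 0.74).

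Genes of energy supply, protein synthesis and protein breakdown are abundant and are read against other abundant genes. Nuclear genes of the respiratory chain (82 tested) had a median of 0.02 as deposited and 0.27 scaled, where 50 of 82 (61.0%) lay wholly above SMA and 0 below. The scaled share wholly above was 9.37% of all genes and 31.9% of genes at 100 TPM or more, whose median of 0.22 is close to that of the list. Ndufb10 of complex I was at 657, 662 and 774 TPM in SMA and 855, 979 and 978 TPM with SMN-C3, and Cox7a1, a muscle-type subunit of complex IV, at 41.2, 37.7 and 19.7 TPM in SMA and 11.3, 11.8 and 20.8 TPM with SMN-C3. Ndufb10 was wholly higher, while Cox7a1 had a log2 change of -1.10 with overlap of SMA 3. The mean level of the list was 9.57 to 9.59 with SMN-C3 and 9.25 to 9.38 in SMA, in scaled log2(TPM+1). As deposited those ranges were 9.46 to 9.53 and 9.43 to 9.53 and overlapped, so the separation appears only once libraries are scaled.

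The 13 mitochondrially encoded genes had a median of 0.38 (scaled 0.63). Without SMA+SMN-C3 1 that median was 0.18, without SMA 1 it was 0.085, and without SMA 2 it was 0.66. mt-Co3, a subunit of complex IV, was at 8492, 14973 and 14832 TPM in SMA and 38617, 14466 and 18786 TPM with SMN-C3. SMA+SMN-C3 1 was far above the other 5 libraries, and the log2 change was 0.83 with it and 0.42 without it.

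Cytosolic ribosomal proteins (82 genes) had a median of -0.10 (scaled 0.14), mitochondrial ribosomal proteins (77 genes) one of -0.04 (scaled 0.20), and the proteasome (38 genes) one of 0.03 (scaled 0.27). As deposited, 24 wholly lower and 2 wholly higher cytosolic ribosomal genes were found, against 4 wholly lower and 24 wholly higher after scaling. The scaled share of 29.3% wholly higher lay near the 31.9% of all genes at 100 TPM or more. For the proteasome the counts were 1 wholly lower and 4 wholly higher, against 0 wholly lower and 15 wholly higher after scaling. Rps27l, a ribosomal protein paralog that is itself known as a p53 target, was at 920.5, 725 and 642 TPM in SMA and 571, 580.4 and 490.01 TPM with SMN-C3, and its sister gene Rps27 at 575, 732 and 656 TPM in SMA and 492, 458 and 392 TPM with SMN-C3. These sister genes are similar in sequence, so reads may be shared between them. Mrpl51 of the mitochondrial ribosome was at 198, 211 and 187 TPM in SMA and 143, 147 and 146 TPM with SMN-C3. Psma3 of the proteasome core was at 561, 478 and 556 TPM in SMA and 948, 643 and 762 TPM with SMN-C3, and Psmc6 of its cap at 131, 98.7 and 105 TPM in SMA and 162, 139 and 153 TPM with SMN-C3. Both proteasome genes lay wholly higher in either scaling, and Mrpl51 wholly lower.

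**Figure D4:**
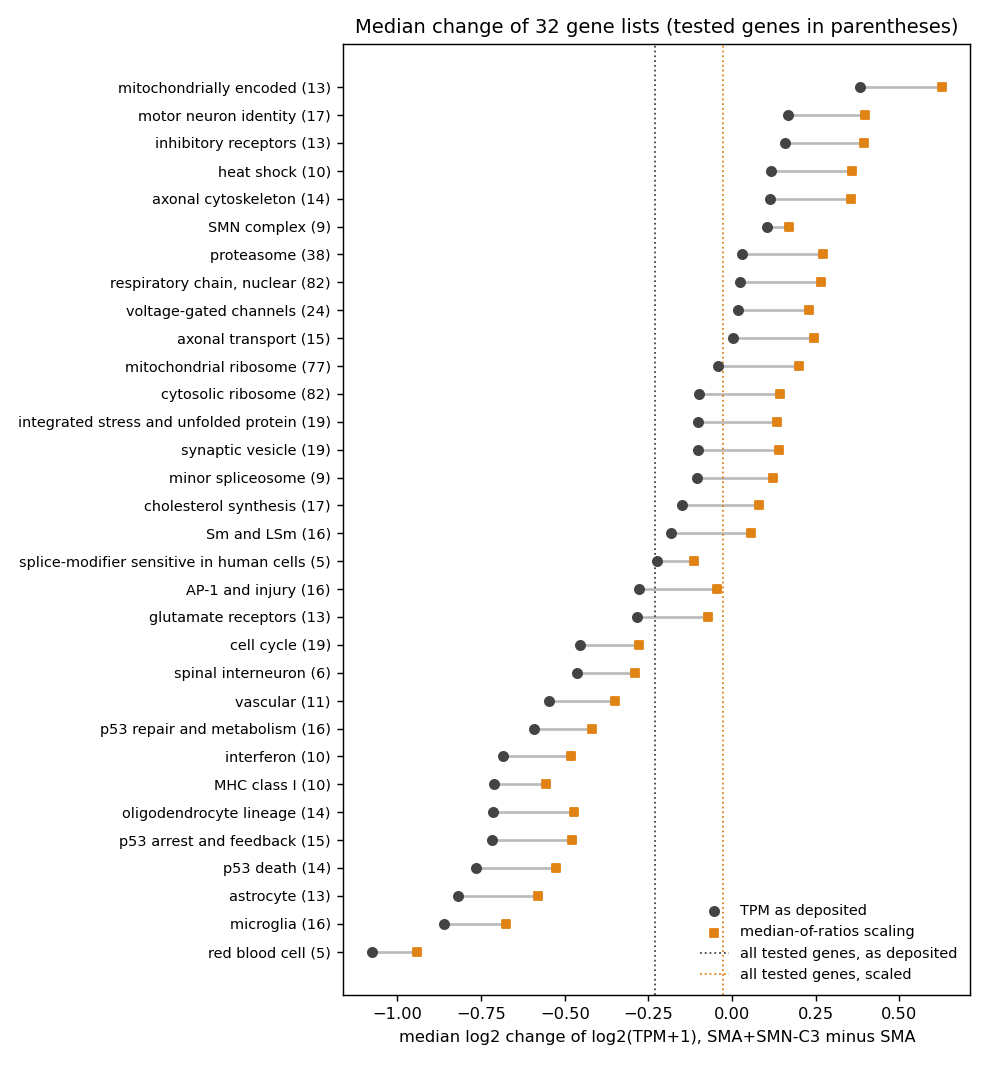
Median difference in log2(TPM+1) between SMA+SMN-C3 and SMA (x axis) for each of 32 gene lists (y axis, tested genes in parentheses), with TPM as deposited (circles) and after median-of-ratios scaling (squares). Dotted lines mark the medians of all tested genes, -0.23 and -0.03; p53 and glial lists lie to their left and motor neuron identity, cytoskeleton, respiratory and proteasome lists to their right.

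Markers of microglia lay lower with SMN-C3, and lists of other cells had negative medians with overlapping groups for most members. Over all genes 18.2% lay wholly lower as deposited and 8.82% after scaling. Microglia markers (16 genes) all had a negative change, with a median of -0.86 (scaled -0.68), and 8 of 16 lay wholly below SMA in either scaling. The complement gene C1qc was at 19.6, 30.2 and 25.4 TPM in SMA and 9.01, 13.05 and 6.71 TPM with SMN-C3 (log2 -1.32, SE 0.32, limma adjusted p 0.17). Cx3cr1, the fractalkine receptor, was at 3.28, 5.49 and 3.51 TPM in SMA and 1.38, 0.774 and 1.07 TPM with SMN-C3, and Ctss, a lysosomal protease, at 15.4, 23.4 and 26.1 TPM in SMA and 9.23, 8.75 and 8.32 TPM with SMN-C3. All 3 were apart, and they were among the 226 genes called as lower with array weights (limma adjusted p 0.012, 0.035 and 0.036). No microglia marker was at 0 in any of the 6 libraries.

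Astrocyte markers (13 genes) had a median of -0.82 (scaled -0.58, with 4 wholly lower and 0 wholly higher as deposited), with summed levels of 1718 to 2538 TPM in SMA and 1859 to 2036 TPM with SMN-C3. Gfap, the filament of reactive astrocytes, was at 81.003, 138 and 133 TPM in SMA and 63.4, 17.6 and 50.997 TPM with SMN-C3. Aqp4, a water channel, was at 95.6, 209 and 103 TPM in SMA and 59.6, 23.8 and 64.7 TPM with SMN-C3, and the connexin Gjb6 at 5.67, 16.2 and 14.8 TPM in SMA and 4.38, 0.849 and 3.87 TPM with SMN-C3. These 3 genes were apart, although the summed levels of the list overlapped, and SMA+SMN-C3 2 was the lowest library for each.

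Oligodendrocyte genes (14 genes) had a median of -0.71 (scaled -0.47, with 1 wholly lower and 0 wholly higher as deposited) and summed levels of 998 to 4809.9 TPM in SMA and 718 to 2109.5 TPM with SMN-C3. The myelin gene Mag was at 51.9, 161 and 112 TPM in SMA and 53.2, 22.9 and 70.3 TPM with SMN-C3. Cnp, another, was at 156, 412 and 250.4 TPM in SMA and 160.1, 78.3 and 134 TPM with SMN-C3. SMA 2 was the highest and SMA+SMN-C3 2 the lowest library for both, and the groups overlapped. The share of the list wholly lower was below that of all genes, with 0 of 14 after scaling, and the median was -0.32 without SMA 2 and -0.39 without SMA+SMN-C3 2. Vascular markers (11 tested) had a median of -0.55, at 133 to 187 TPM in SMA and 58.7 to 103 TPM with SMN-C3, and Pdgfrb of mural cells was at 1.08, 3.15 and 1.12 TPM in SMA and 0.132, 0.461 and 0.492 TPM with SMN-C3. Red blood cell genes (5 tested) had a median of -1.08, and the globin Hbb-bs was at 212, 1007 and 638 TPM in SMA and 480.2, 55.04 and 258 TPM with SMN-C3, with overlap. Without SMA 2 the vascular median was -0.12, and without SMA+SMN-C3 2 the vascular and red blood cell medians were -0.19 and -0.41. Interneuron markers (6 of 10 tested) had a median of -0.46, and Gad2, an enzyme that makes GABA, was at 1.001, 5.22 and 2.96 TPM in SMA and 1.16, 0.142 and 0.266 TPM with SMN-C3, also with overlap. The part of these other cells in any result above was not tested.

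Antigen presentation and interferon genes had negative medians too. MHC class I genes (10 tested) had a median of -0.71 (scaled -0.56, with 4 wholly lower and 0 wholly higher as deposited), and Tap1, the peptide transporter, was at 21.9, 10.98 and 8.83 TPM in SMA and 2.36, 6.48 and 2.58 TPM with SMN-C3 (log2 -1.63, limma adjusted p 0.33). After scaling 1 of the 10 lay wholly lower, a share near the 8.82% of all genes. Interferon-stimulated genes (10 of 15 tested) had a median of -0.68 (scaled -0.48, with 4 wholly lower and 0 wholly higher as deposited). After scaling 3 of these interferon genes lay wholly lower. Over all genes the shares wholly lower were 18.2% as deposited and 8.82% after scaling. Isg15 was at 1.13, 3.78 and 2.32 TPM in SMA and 0, 0 and 0.296 TPM with SMN-C3, and Irgm1, a GTPase of immunity inside cells, at 7.17, 8.77 and 6.03 TPM in SMA and 1.83, 3.67 and 2.31 TPM with SMN-C3. Each of Tap1, Isg15 and Irgm1 was apart in either scaling and none was called. The microglia levels above moved the same way, and what they add to these genes was not tested.

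Stress programmes were mixed. Immediate early and injury genes (16 of 19 tested) had a median of -0.28 (scaled -0.05, with 5 wholly lower and 1 wholly higher as deposited). Over all genes 18.2% lay wholly lower and 2.52% wholly higher as deposited. After scaling 3 injury genes lay wholly lower and 3 wholly higher, against 8.82% and 9.37% of all genes. The AP-1 gene Fos was at 49.8, 37.3 and 40.3 TPM in SMA and 26.1, 13.5 and 18.01 TPM with SMN-C3, and Egr1 at 17.04, 12.9 and 12.4 TPM in SMA and 6.04, 6.96 and 6.93 TPM with SMN-C3, both wholly lower. Hspb1, a small heat shock protein of injured neurons, was at 58.9, 43.5 and 69.5 TPM in SMA and 144, 99.7 and 74.6 TPM with SMN-C3, wholly higher. The integrated stress and unfolded protein genes (19 tested) had a median of -0.10 (scaled 0.13, with 4 wholly lower and 1 wholly higher as deposited). Their share wholly lower, 21.1%, was near that of all genes. The ATF4 target Slc7a11, a cystine transporter, was at 4.2003, 5.49 and 7.63 TPM in SMA and 2.01, 2.54 and 2.003 TPM with SMN-C3. Phgdh, a serine synthesis enzyme under the same factor, was at 37.01, 60.97 and 62.1 TPM in SMA and 21.5, 18.2 and 32.5 TPM with SMN-C3. Both lay wholly lower in either scaling. Heat shock genes (10 tested) had a median of 0.12 and cholesterol synthesis genes (17 tested) one of -0.15, or 0.36 and 0.08 after scaling. The inducible chaperone Hspa1a, which has a near-identical copy in Hspa1b, was at 4.46, 2.71 and 4.001 TPM in SMA and 1.76, 2.44 and 2.06 TPM with SMN-C3. Msmo1 of sterol synthesis was at 99.6, 112 and 81.6 TPM in SMA and 77.3, 52.8 and 59.04 TPM with SMN-C3. Both lay wholly lower as deposited and overlapped after scaling.

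Cell cycle genes (19 tested) had a median of -0.45 (scaled -0.28, with 5 wholly lower and 0 wholly higher as deposited). Over all genes 18.2% lay wholly lower and 2.52% wholly higher as deposited. After scaling 3 of the 19 lay wholly lower and 1 wholly higher, against 8.82% and 9.37% of all genes. The scaled median of all genes under 2 TPM was also -0.28. The replication licensing gene Mcm3 was at 3.05, 5.82 and 2.76 TPM in SMA and 0.0888, 0.129 and 0.0269 TPM with SMN-C3. Its partner Mcm6 was at 5.63, 5.65 and 5.83 TPM in SMA and 1.35, 0.816 and 4.77 TPM with SMN-C3. Cdc20, an activator of the anaphase ligase, was at 6.55, 6.81 and 10.1 TPM in SMA and 3.67, 1.28 and 3.27 TPM with SMN-C3. All 3 lay wholly lower in either scaling, and the log2 change of Mcm3 was -2.12 (SE 0.46, limma adjusted p 0.14).

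Over all tested genes, 284 with at least 10 TPM in a group mean lay wholly higher with SMN-C3 in either scaling and 581 wholly lower. The largest positive changes among them, apart from Chodl, were those of Zfp119b, Adm, Kbtbd3, Aard, Nptn, Tspyl4 and Gadd45b, with log2 changes of 1.61, 1.30, 1.26, 1.19, 1.18, 1.14 and 1.13, and none was called (limma adjusted p 0.38 to 0.66). Nptn (ENSMUSG00000032336.17, chr9:58582240-58657955 on the plus strand), a synaptic adhesion protein, was at 518, 695 and 554 TPM in SMA and 2213, 726 and 1452 TPM with SMN-C3. Tspyl4 was at 304, 331 and 295 TPM in SMA and 1331, 374 and 643 TPM with SMN-C3, Zfp119b, a zinc finger gene, at 1.45, 3.703 and 3.64 TPM in SMA and 21.4, 5.58 and 9.41 TPM with SMN-C3, and Kbtbd3 at 17.4, 12.6 and 16.9 TPM in SMA and 47.98, 36.9 and 32.1 TPM with SMN-C3. For all 4 the highest of the 6 libraries was SMA+SMN-C3 1, the one with the highest mitochondrial share (11.3%), and without it their log2 changes were 0.81, 0.66, 1.13 and 1.11. With the mitochondrial share as a covariate they were 0.84, 0.71, 1.21 and 0.999.

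Adm and Gadd45b were lowest in that library among the treated ones. Adm, the vasodilator peptide adrenomedullin, was at 2.16, 3.56 and 4.55 TPM in SMA and 6.21, 12.5 and 11.3 TPM with SMN-C3, Aard at 11.9, 30.4 and 46.5 TPM in SMA and 65.2, 61.5 and 54.5 TPM with SMN-C3, and Gadd45b, a stress-induced gene, at 7.504, 2.77 and 8.93 TPM in SMA and 11.7, 16.9 and 13.7 TPM with SMN-C3. Adm, Aard and Chodl were lowest in SMA 1. Among the largest negative changes outside the called genes, Trim47 (ENSMUSG00000020773.11, chr11:116105752-116127210 on the minus strand), a ubiquitin ligase whose exons overlap Trim65 on the same strand and whose value is therefore uncertain, was at 132, 40.8 and 22.5 TPM in SMA and 9.49, 0.675 and 4.096 TPM with SMN-C3 (log2 -3.50, SE 0.75, limma adjusted p 0.13). Iapp, the peptide amylin, was at 56.2, 7.53 and 3.93 TPM in SMA and 1.405, 0 and 0 TPM with SMN-C3, with SMA 1 far above the rest. The pseudogene Gm47937 was at 6.69, 19.3 and 51.8 TPM in SMA and 1.06, 0 and 0 TPM with SMN-C3. Another, Rpl31-ps8, was at 76.9, 96.2 and 137 TPM in SMA and 42.2, 0 and 9.87 TPM with SMN-C3. Gm10985, a gene of only 193 bases, was at 11.9, 104 and 63.3 TPM in SMA and 0.617, 10.1 and 0.237 TPM with SMN-C3. Pseudogene values are uncertain because reads of the parent gene can be assigned to them, and in WT Gm10985 was at 94.04, 19.9 and 33.8 TPM, far above 2 of the treated libraries.

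Exons of some genes named here overlap exons of other genes, and whether counting used the strand is not given in the sources used here, so their values are less certain. Overlap on the other strand was found for Cdkn1a, Tigar, Gemin4, Pomt2, Zmat5, Gfra1, Nefm and Nefl (with each other), Kcna6, Cx3cr1, Cnp, Hspa1a, Tap1, Cdc20, Nptn and Tspyl4, and overlap on the same strand for Trim47, Gemin4, Rnpc3, Gria4, mt-Co3 and Mrpl51.

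**Figure D5:**
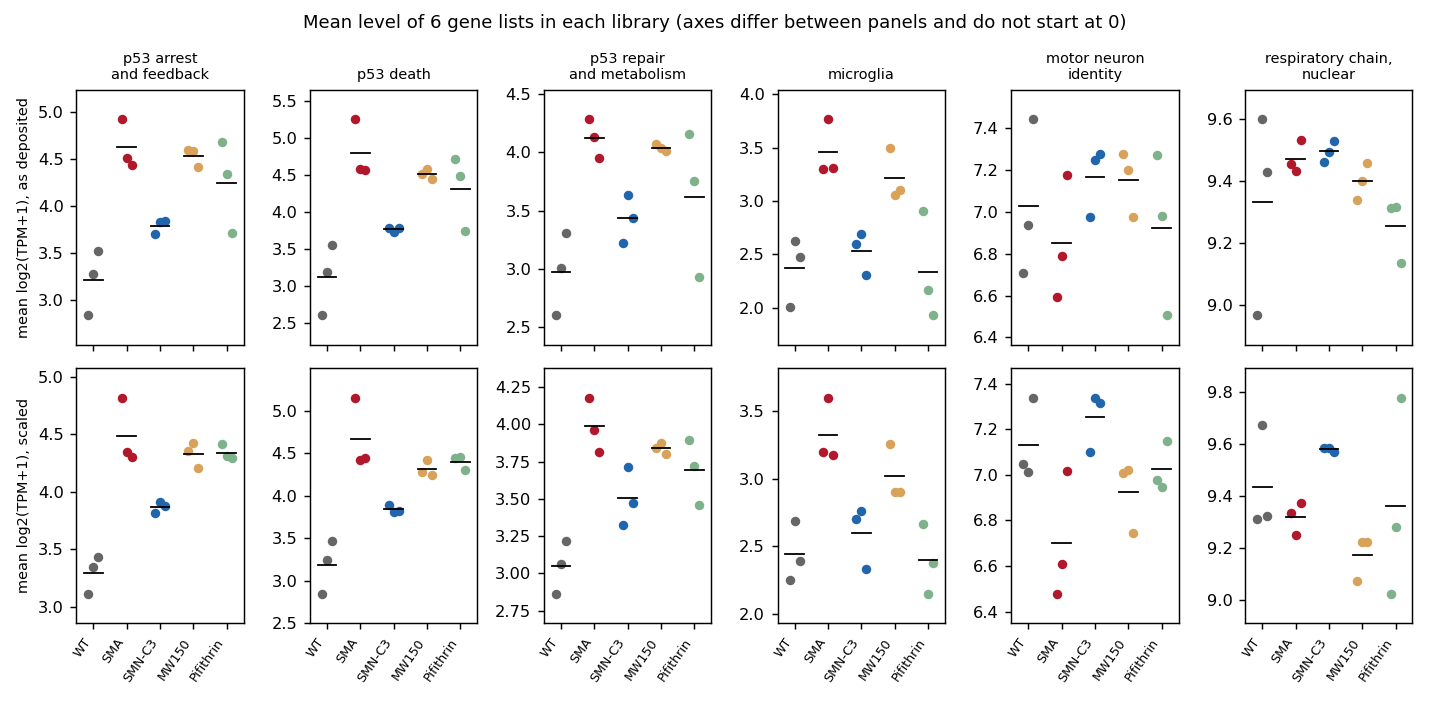
Mean log2(TPM+1) (y axis, own scale in each panel) of 6 gene lists in each of the 15 libraries, as deposited (top) and after median-of-ratios scaling (bottom), with a black line at the group mean and 3 points per group in replicate order. SMN-C3, MW150 and Pifithrin stand for treated SMA mice; the SMN-C3 points of the p53 lists lie below the SMA points in both rows, while those of the respiratory chain are separate from SMA in the bottom row only.

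SMN-C3 was also set directly against the other treatments, which differ from it in compound and dose, because comparisons with SMA share the 3 SMA libraries. Against SMA+MW150 1 gene was called (0.00648% of those tested), Ly6d, lower with SMN-C3 (limma adjusted p 0.0083), and 1778 genes had an unadjusted p under 0.05. That call was lost without SMA+SMN-C3 1, SMA+SMN-C3 3 or SMA+MW150 3. The p53 death list had a mean of 3.73 to 3.78 with SMN-C3 and 4.45 to 4.58 with MW150 in log2(TPM+1), and the direct contrasts of Fas, Perp and Cdkn1a were -1.84, -1.12 and -1.41 (limma adjusted p 0.20, 0.31 and 0.23). A fit of only those groups, which called 453 of 15425 genes, 449 of them lower, gave adjusted p of 0.016, 0.049 and 0.015 for them in limma. The median change of all genes against MW150 was -0.30 as deposited and -0.04 after scaling. After scaling, the contrasts of Fas, Perp and Cdkn1a over all 15 libraries were -1.56, -0.81 and -1.09 (limma adjusted p 0.55, 0.65 and 0.47). Ddit4l, Tcea3, Them5 and 1700007K13Rik were nearest to the threshold after Ly6d among the 10 genes, each with an adjusted p of 0.064.

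Against SMA+Pifithrin-alpha 0 genes were called in limma (0.0%), and 1103 had an unadjusted p under 0.05. The p53 death list ranged over 3.74 to 4.72 with Pifithrin-alpha, where replicate 3 was lowest, and over 4.30 to 4.45 once scaled, against 3.81 to 3.88 with SMN-C3. Cdkn1a was at 709, 515 and 194 TPM with Pifithrin-alpha and Fas at 15.8, 22.9 and 31.3 TPM. The direct contrasts of SMN-C3 for those genes were -0.38 and -2.26 (limma adjusted p 0.80 and 0.26). The Cdkn1a value was -0.92 without Pifithrin-alpha 3, -0.22 without Pifithrin-alpha 2 and 0.00673 without Pifithrin-alpha 1, so it rests on single libraries. In the main fit no difference between SMN-C3 and Pifithrin-alpha passed the test, which does not show that they act alike.

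Against WT, 3 genes (0.0194%) were called in limma, and 1128 had an unadjusted p under 0.05. Smn1 was lower, the deletion being carried by all SMA mice (log2 -3.69, adjusted p 0.0016). Cdkn1a stood at 35.9, 47.5 and 44.7 TPM in WT and Dcxr at 17.1, 11.95 and 13.9 TPM, so every SMN-C3 library exceeded every WT library for both genes (log2 2.88 and 2.82, adjusted p 0.0093 and 0.0044). The Cdkn1a call was lost without SMA+SMN-C3 1, 2 or 3 (limma adjusted p 0.057 to 0.084). Fas, Perp, Plk2 and Gtse1 differed from WT by 0.99, 0.79, 0.57 and 0.53 and were not called (limma adjusted p 0.67 to 0.71). Among these named p53 targets the distance of the treated libraries from WT ran from 0.53 to 2.88 on the log2 scale.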

How the data were processed

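Motor neurons of 15 samples in 5 groups of 3 were profiled by RNA sequencing, and the 3 SMA+SMN-C3 and 3 SMA samples were compared. The authors deposited TPM values per gene, estimated with kallisto 0.44.0 on GRCm38.p6 (mm10), per the submitters' processing notes; annotation release, trimming and strand setting are not given in the sources used here. TPM is a share within a library and keeps no depth. Symbols were matched to GENCODE M21 (36003 of 36144; 15354 tested genes had 1 gene), which gave IDs and GRCm38 coordinates.

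From these values, log2(TPM+1) was computed for genes that reached 1 TPM in 3 or more of 15 libraries. All fold changes are on this scale, which understates those of low genes. limma 3.58.1 (R 4.3.3; 1 mean per group over all 15 libraries, intensity trend, two-sided) gave p-values, adjusted by Benjamini-Hochberg over all tested genes, with a threshold of 0.05. The script was tested on simulated data. Median-of-ratios factors rested on 13320 genes. Groups are called wholly higher or lower where the 3 libraries of each do not overlap. Lists carry no test and are described by counts and medians. Python 3.11.15, pandas 2.3.3, numpy 2.4.6 and matplotlib 3.10.9 were used otherwise.

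Genes were named by rule: every called gene; the 8 largest changes each way among genes with a group mean of at least 10 TPM and groups apart in either scaling; in each of 32 lists the 3 members with the smallest p (some of these are not described); Smn1, Trp53, Cdkn1a, Mdm2, Ccng1, Tmem41b and Chat; and up to 5 genes called in each direct contrast with another treatment. Aen, Bbc3 and Tigar were added for their promoters after values were seen. Deviations from group means of same-numbered SMN-C3 and WT libraries had correlations of 0.29, 0.10 and 0.18 over genes. Some unlike numbers correlated as well, at 0.14 for SMN-C3 3 with WT 2 and 0.25 for SMN-C3 1 with Pifithrin-alpha 3. Whether libraries are paired by number cannot be told from these values, and the labels give no pairing. Members and lists were chosen with earlier results of these data known. Alternatives changed the scaling, pseudocount, filter, weights, covariates, replicate block and libraries.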

Additional observations from a re-analysis of the deposited data

How the results depend on the processing

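Against SMA, the 10 calls became 4 with a filter on a mean of at least 5 TPM, 231 with array weights, 29 with the mitochondrial share as a covariate, 0 with only the groups compared (limma, 2265 genes at an unadjusted p under 0.05) and 21 when the filter was also set within those groups. With 1 library left out they ranged from 2 to 13. Both fits of only 2 groups, and median-of-ratios scaling with pseudocount 0.1, were chosen after seeing the data. The replicate block gave 11 calls against SMA, 7 against MW150, 0 against Pifithrin-alpha and 3 against WT. Same-numbered libraries did not deviate together for SMA (correlations -0.12, -0.02 and -0.0049), MW150 (0.055, 0.083 and 0.021) or Pifithrin-alpha (-0.26, 0.046 and -0.072). The block changed no call against WT. Against MW150, the 1 call became 5 without mitochondrial genes, 8 with pseudocount 0.1, 0 with no filter (limma, 2513 at an unadjusted p under 0.05), 1366 with array weights, 55 with the mitochondrial covariate, 4 with scaling and pseudocount 0.1, 453 with only the groups compared and 664 with the filter within them, and 0 to 2 with 1 library left out. Against Pifithrin-alpha, the 0 calls became 2 with pseudocount 0.1, 2341 with array weights, 6 with the mitochondrial covariate and 3 with scaling and pseudocount 0.1. Against WT, the 3 calls became 5 with scaling, 39 with array weights, 9 with the mitochondrial covariate and 5 with scaling and pseudocount 0.1, and 2 to 8 with 1 library left out. The cause of these differences was not tested.

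The median change of all genes was -0.23 and became -0.026 with scaling and -0.032 with scaling and pseudocount 0.1. The p53 median of -0.72 ranged from -0.45 with the mitochondrial covariate to -0.83 without SMA 2. Of 1681 values of 100 named genes under alternatives, 1577 kept direction and side of the threshold, 64 lost and 34 gained a call, and 6 turned sign in 2 genes. Tigar, at -0.05, was 0.17 with scaling, 0.18 with scaling and pseudocount 0.1, 0.067 with the mitochondrial covariate, and -0.17 to 0.14 with 1 library left out, above 0 without SMA 3 or SMN-C3 1. The direct Cdkn1a difference from Pifithrin-alpha, at -0.38, ranged from -0.92 to 0.00673 with 1 library left out. Smn1, near 0 in both groups, ranged from -0.11 without SMN-C3 3 to 0.33 without SMA 1. With 1 library left out, a group of 2 is assumed to vary like the other groups. TPM gives no depth, so what low genes can show is not known.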
